A study of Mus musculus with 6 samples.

Results

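A group of 9 genes of retinoid metabolism and of the aldehyde oxidase family was followed in cultured smooth muscle cells of the mouse abdominal aorta (MASMCs) in which Pdk4 had or had not been deleted. They were chosen by name, as Aldh1a1, Aldh1a2, Aldh1a3, Aox1, Aox3, Crabp1, Crabp2, Rarb and Cyp26b1, and they are 9 of the 41721 genes in the count table. Aox3 was selected on its measured difference between the same libraries, so its values are given as a description without a test, and the other 8 were listed with earlier results of these libraries known. All 9 passed the filter on low counts. Aldh1a2, Aldh1a3, Aox3, Crabp1 and Crabp2 met it in every library of 1 genotype alone.

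RNA was sequenced from 3 libraries labelled Pdk4fl/fl and 3 labelled Pdk4SMKO, all from cells treated with Ang II, a peptide hormone that constricts vessels. Both genotypes carry floxed Pdk4 alleles, made in C57BL/6J zygotes, and the Pdk4SMKO mice also carry Myh11-CreERT2, a Cre recombinase that the smooth muscle myosin promoter drives and tamoxifen activates. Per the study's methods, mice of both genotypes received tamoxifen at 6 weeks of age (75 mg/kg/day for 5 days), and cells were isolated by collagenase at 10 weeks, grown in 10% fetal bovine serum, used at passages 4 to 8, serum-starved for 48 h and given 1 µM Ang II for 48 h. There was no library without Ang II, and the labels do not say whether the libraries of a genotype came from separate mice, although the study calls them biological replicates, so the p-values measure the spread between these libraries.

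Between 16526044 and 22481670 reads were counted per library, and a count of 3, taken here as the limit of detection, equalled between 0.132 and 0.227 CPM, which is the count of a gene relative to the library size after TMM scaling. These limits cover counting error only. The targeted gene, Pdk4, was at 35.0 ± 3.07 CPM (SD, n = 3) in Pdk4fl/fl and 6.94 ± 2.11 CPM (SD, n = 3) in Pdk4SMKO cells. Xist, the RNA of the inactive X chromosome in female cells, was looked up after its values had been seen. It had 3, 4 and 5 counts in Pdk4fl/fl and 610, 347 and 321 counts in Pdk4SMKO libraries, whereas this Myh11-CreERT2 transgene lies on the Y chromosome. Per the study's methods, male mice were used for all of its animal experiments. The table holds 0 genes of the Y chromosome. Xist was detected in all 3 Pdk4SMKO libraries, so no comparison can be given without them. Genotype and a difference in the source of the cells cannot be told apart.
Libraries of 1 genotype correlated at 0.981 or more in log2 CPM across genes, and libraries of different genotypes at 0.748 or less. Of the 14085 genes tested, 32.8% were higher and 26.5% were lower in Pdk4SMKO cells by 2-fold or more with an adjusted p below 0.05, and for 81.8% the libraries of the genotypes did not overlap. With library size alone in place of TMM scaling these shares were 43.9% and 17%, and the median log2 fold change of all genes tested moved from 0.12 to 0.72 (0.33 with upper-quartile scaling).

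All 8 smooth muscle markers examined were detected. Their summed level was 785 to 811 CPM in Pdk4fl/fl and 723 to 954 CPM in Pdk4SMKO libraries, with overlap, while single markers moved apart. Of the 8, 4 were higher and 3 were lower, among them Acta2 (233 ± 40.8 against 701 ± 74.5 CPM, SD, n = 3) and Tagln (253 ± 38.6 against 52.7 ± 29.7 CPM, SD, n = 3). Myh11, the gene whose promoter drives the Cre, was low in both genotypes, at 0.613 and 2.39 CPM. Of 8 markers of mesothelium, the epithelium that lines body cavities, 7 were tested and 7 were higher. Their summed level was 74.2 to 99.99 CPM in Pdk4fl/fl and 723 to 1325 CPM in Pdk4SMKO libraries, and the defining markers Msln and Upk1b went from 6.43 to 410 CPM and from 0.157 to 219 CPM. Fibroblast markers summed to 132 to 162 CPM in Pdk4fl/fl and 528 to 1043 CPM in Pdk4SMKO libraries, with 4 of 8 tested genes higher and 1 lower. Endothelial markers summed to 17.4 to 26.3 CPM against 2.94 to 5.66 CPM, with 3 of 3 tested genes lower. Of 6 tested macrophage markers 5 were higher and 1 was lower, with C1qb at 0 counts in Pdk4fl/fl and 4.32 ± 2.81 CPM in Pdk4SMKO libraries and Cd68 at 31.2 ± 8.78 against 4.30 ± 2.18 CPM (SD, n = 3), while their summed level overlapped between genotypes (21.4 to 38.0 against 9.47 to 29.1 CPM). The sum of adipocyte markers also overlapped, and Schwann cell markers summed to 16.0 to 22.2 CPM against 37.1 to 39.2 CPM. These marker counts stand beside 32.8% higher and 26.5% lower of all genes tested. Of the tested markers, Upk1b, Krt18, Erg, Adgre1, C1qa, C1qb and Tyrobp had 3 counts or fewer in every library of 1 genotype. They passed the filter through the other genotype alone and so had to differ. In such bulk libraries, fewer cells of a type and less RNA per cell cannot be told apart.

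Retinol, the alcohol form of vitamin A, is taken up by cells, bound to carrier proteins and reversibly oxidised to retinal. Retinal is then irreversibly oxidised to retinoic acid, mainly by the cytosolic ALDH1A dehydrogenases. The aldehyde oxidases, which need a molybdenum cofactor, can also oxidise retinal in vitro and accept many other aldehydes and heterocycles. Retinoic acid is carried by CRABP proteins or FABP5 to the nucleus, where RAR and RXR receptors regulate genes with paired half-sites near their promoters, and it is broken down by CYP26 enzymes. In smooth muscle, retinoic acid is known for effects on growth and differentiation.

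The DNA sequence just before the start site is shown for 4 genes, since the report turns on the receptor gene Rarb, on its classical response element and on the neighbouring genes Aox1 and Aox3. Each stretch is the 100 bases upstream of the RefSeq start in GRCm38.p6, read 5′ to 3′ on the strand of the gene. Capitals mark a direct repeat with a spacing of 5 bases (DR5) in which each half-site is AGGTCA or one of its variants, the variant AGTTCA, the variant GGGTCA and the variant GGTTCA, searched on both strands. The genome positions are chr14:16575477-16575576 on the minus strand for Rarb, chr19:37697708-37697807 on the plus strand for Cyp26a1, chr1:58029869-58029968 on the plus strand for Aox1 and chr1:58113036-58113135 on the plus strand for Aox3.
Rarb: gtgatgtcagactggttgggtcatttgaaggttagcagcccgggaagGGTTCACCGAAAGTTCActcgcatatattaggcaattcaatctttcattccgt
Cyp26a1: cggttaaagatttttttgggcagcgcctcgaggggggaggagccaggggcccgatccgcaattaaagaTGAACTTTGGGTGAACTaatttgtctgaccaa
Aox1: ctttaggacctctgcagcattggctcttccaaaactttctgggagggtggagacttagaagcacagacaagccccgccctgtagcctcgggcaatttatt
Aox3: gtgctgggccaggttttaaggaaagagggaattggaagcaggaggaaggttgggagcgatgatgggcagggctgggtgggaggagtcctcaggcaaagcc
The DR5 of Rarb runs from base -53 to base -37 relative to the start on the strand of the gene, and that of Cyp26a1 from base -32 to base -16 on the opposite strand. RefSeq promoter windows, from 250 bases before to 50 bases after the start, were at hand for 7 of the 9 genes, and Rarb was the 1 gene of those 7 that held a DR5. None of the 7 held the same half-sites at a spacing of 1 or 2 bases (0 of 7). Among all 32851 promoter windows, 0.0974% held a DR5, 0.222% a repeat with a spacing of 1 and 0.268% one with a spacing of 2. Such a match describes letters and does not show binding.

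Of the 8 genes other than Aox3, 4 were higher in Pdk4SMKO cells (Aldh1a1, Aldh1a2, Aox1 and Cyp26b1), 3 were lower (Aldh1a3, Crabp1 and Crabp2) and Rarb did not pass the test, beside backgrounds of 32.8% and 26.5% of all genes tested. Libraries of the genotypes did not overlap for 7 of the 8, beside 81.8% of all genes tested. For each of these 7, the exact two-sided permutation test gave p = 0.1, the smallest that 3 libraries against 3 allow. Aldh1a2, Aldh1a3, Crabp1 and Crabp2 met the filter in every library of 1 genotype alone. The filter thus favours a difference in these genes, and their p-values carry this limit. Aldh1a2 and Crabp1 had 3 counts or fewer in every library of the other genotype and so had to differ. Since the genes were also listed with the results known, nothing is read from these counts.

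**Figure D1:**
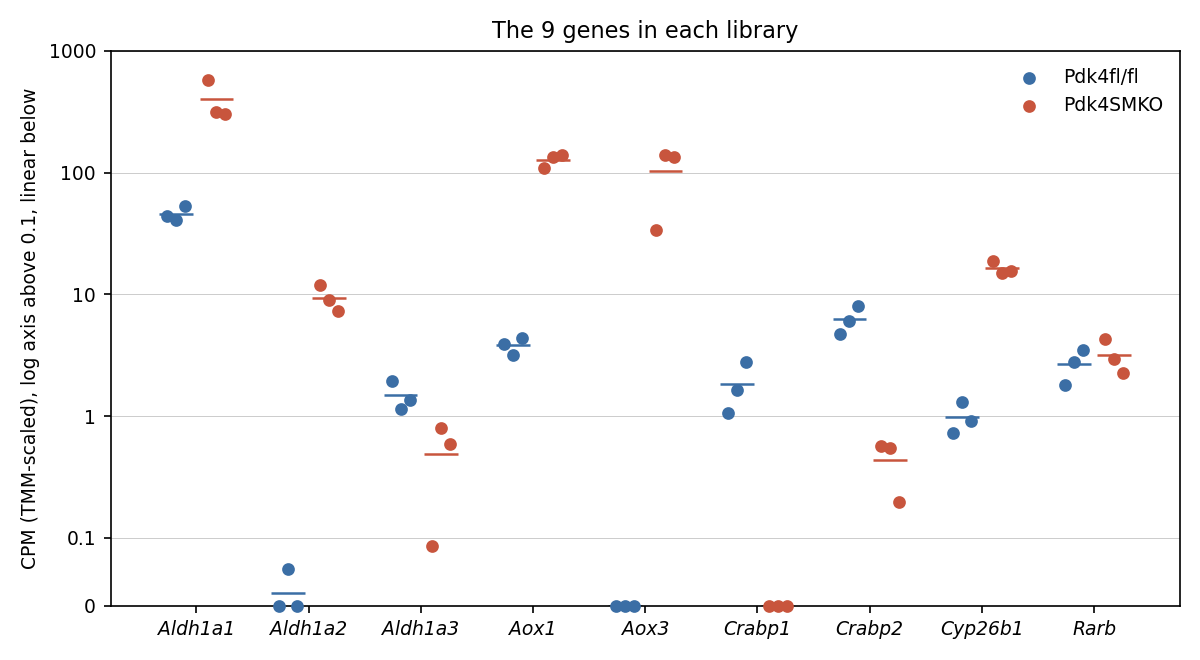
CPM of each of the 9 genes in each library, with Pdk4fl/fl in blue, Pdk4SMKO in red and a bar at the mean of 3 libraries. The axis is logarithmic above 0.1 and linear below, so that libraries with 0 counts can be drawn, and the colours overlap only for Rarb.

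The ALDH1A dehydrogenases moved in different directions. Aldh1a1, a broad retinal dehydrogenase also used as a marker of progenitor cells, was the most abundant of the 9 genes per length in both genotypes. It lies on chromosome 19 from 19246238 to 19291523 (MGP_C57BL6NJ_G0025391, in the coordinates of the table) and had 655, 736 and 701 counts in Pdk4fl/fl and 13111, 6354 and 6161 counts in Pdk4SMKO libraries. All 3 Pdk4SMKO libraries were far above the Pdk4fl/fl libraries, and replicate 1 was the highest. Its level was 45.7 ± 6.56 CPM in Pdk4fl/fl and 398 ± 154 CPM in Pdk4SMKO cells (SD, n = 3), 8.71-fold higher. The log2 fold change was 3.12 (SE 0.25, adjusted p = 1.6e-06, edgeR's quasi-likelihood test).
Aldh1a2, the main retinoic acid producing enzyme of the early embryo and a gene of embryonic and adult mesothelium, had 0, 1 and 0 counts in Pdk4fl/fl and 271, 179 and 148 counts in Pdk4SMKO libraries. It was thus at or under the limit of detection in all Pdk4fl/fl libraries and clearly detected in all Pdk4SMKO libraries, at 9.36 ± 2.35 CPM (SD, n = 3). Against a floor of 3 counts per library it was at least 47.4-fold higher, and leaving out any 1 library moved the bound to between 41.0 and 52.7.
Aldh1a3, a retinal dehydrogenase of developing eye and nasal tissue, had 29, 21 and 18 counts in Pdk4fl/fl and 2, 16 and 12 counts in Pdk4SMKO libraries. The groups did not overlap after scaling, but the Pdk4SMKO libraries spread widely, with replicate 1 close to 0. Its level was 1.48 ± 0.404 CPM against 0.491 ± 0.364 CPM (SD, n = 3), a log2 fold change of -1.60 (SE 0.59, edgeR, adjusted p = 0.029). This call was lost without Pdk4fl/fl replicate 1 (log2 fold change -1.36, edgeR, adjusted p = 0.101), without Pdk4SMKO replicate 3 (-1.75, adjusted p = 0.0561), with upper-quartile scaling (-1.40, adjusted p = 0.0502) and with library size alone (-1.01, adjusted p = 0.14).

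Aldh1a7, a rodent paralog next to Aldh1a1 on chromosome 19 (50307 bases away), rose from 2.70 ± 1.07 to 15.4 ± 3.55 CPM (SD, n = 3), a log2 fold change of 2.52 (SE 0.30, edgeR, adjusted p = 2.42e-05). The longest stretch that the longest coding transcripts of Aldh1a1 and Aldh1a7 share is 100 bases in the GENCODE annotation. Of the 50-base windows of Aldh1a1, 6.54% occur in Aldh1a7, and of the 150-base windows 0%. Per the study's methods the reads had 150 bases, so a full read could not match both of these transcripts exactly. How shorter or inexact matches were assigned is not given. For every other pair checked among the ALDH1A, aldehyde oxidase and CRABP genes, the longest shared stretch was 28 bases or less. Aldh8a1, another dehydrogenase that accepts 9-cis-retinal, had 132, 144 and 70 counts in Pdk4fl/fl and 0 in all 3 Pdk4SMKO libraries, and was at least 51.4-fold lower.
Per length, the summed ALDH1A level (Aldh1a1, Aldh1a2, Aldh1a3 and Aldh1a7) was 23.9 ± 3.70 CPM per kb in Pdk4fl/fl and 205.6 ± 74.3 CPM per kb in Pdk4SMKO cells (SD, n = 3). Aldh1a1 made up 93.3 ± 1.0% of this sum in Pdk4fl/fl and 93.8 ± 2.18% in Pdk4SMKO cells, so its share differed by less than the spread between libraries while the sum was 8.60-fold higher (13.2-fold with library size alone). The share of Aldh1a3 was 1.36 ± 0.420% against 0.0634 ± 0.0506%, and that of Aldh1a2 was 0.0387 ± 0.0670% against 2.06 ± 0.278% (SD, n = 3).

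Both detected aldehyde oxidases were higher in Pdk4SMKO cells. Aox1, the aldehyde oxidase found in most tissues, lies on chromosome 1 from 60231857 to 60310903 (MGP_C57BL6NJ_G0016436). It had 59, 58 and 58 counts in Pdk4fl/fl and 2492, 2678 and 2862 counts in Pdk4SMKO libraries. The libraries of each genotype were close together and the genotypes lay far apart, at 3.84 ± 0.608 and 127.7 ± 16.2 CPM (SD, n = 3), 33.3-fold higher. Its log2 fold change was 5.07 (SE 0.18, edgeR, adjusted p = 1.45e-08).
Aox3, an aldehyde oxidase known mainly from mouse liver, follows Aox1 after 8045 bases on the same strand, from 60318949 to 60408371 (MGP_C57BL6NJ_G0016437). It had 0 counts in all 3 Pdk4fl/fl libraries and 772, 2825 and 2734 counts in Pdk4SMKO libraries. Replicate 1 was thus well below replicates 2 and 3, at 33.9, 140.6 and 134.1 CPM. Aox3 was at least 521.5-fold higher, given as a description because it was picked for this difference, and the bound was 426 without Pdk4SMKO replicate 2 and 696 without Pdk4SMKO replicate 1. A small nucleolar RNA gene within the span of Aox3 had 0 counts in all 6 libraries.
The next genes of the same cluster, Aox4 and Aox2, stayed at or under 1 count in every library. Hence Aox1 alone made up the summed aldehyde oxidase level of 0.442 ± 0.0700 CPM per kb in Pdk4fl/fl cells, with Aox2, Aox3 and Aox4 at 0 counts. In Pdk4SMKO cells the sum was 29.3 ± 10.3 CPM per kb (SD, n = 3), 66.4-fold higher and 101-fold higher with library size alone. This sum includes Aox3, which was picked for its difference, and Aox1 alone was 33.3-fold higher. Aox3 gave 27.7%, 56.6% and 54.1% of the sum in replicates 1, 2 and 3. Between Aox1 and Aox3 the order in Pdk4SMKO cells was not separated by the spread, at 14.7 ± 1.87 and 14.6 ± 8.51 CPM per kb (SD, n = 3). These levels rest on gene lengths of 8683 and 7033 bases. The longest coding transcripts in GENCODE have 4423 and 4606 bases.

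**Figure D2:**
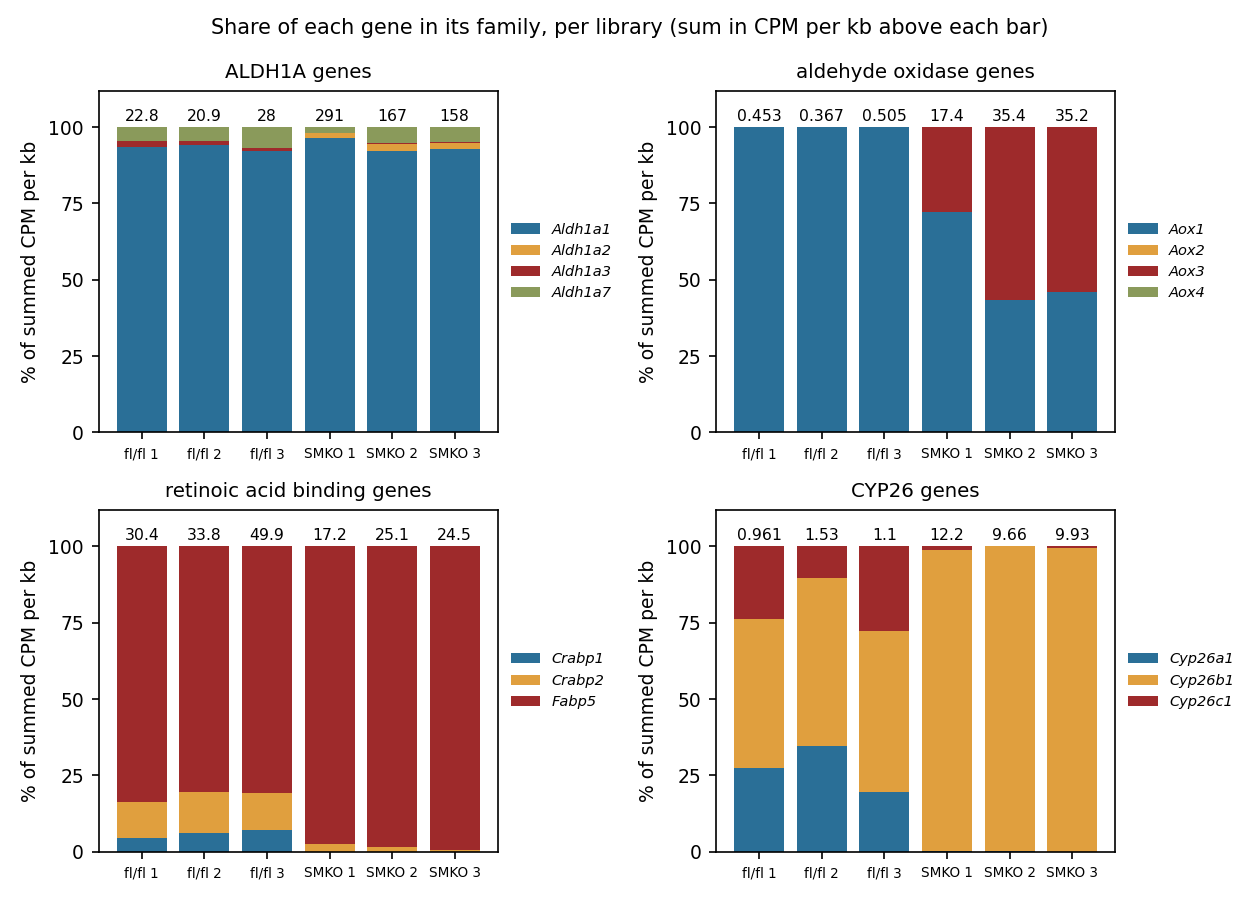
Stacked bars give each gene's share of the summed CPM per kb of its family in each library, and the number above a bar is that sum. Aldh1a1 fills 92.2% or more of the ALDH1A bars in both genotypes, Aox3 appears only in the Pdk4SMKO bars, and Cyp26b1 goes from between 48.8% and 55.2% of the CYP26 bars to 98.6% or more.

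The other molybdenum enzymes and the genes that build the molybdenum cofactor or add its sulfur were counted as a list. Of 8 tested genes, 4 were higher and 0 were lower, beside 32.8% and 26.5% of all genes tested. Xdh, xanthine dehydrogenase of purine breakdown and the closest relative of the aldehyde oxidases, had 89, 103 and 79 counts in Pdk4fl/fl and 3946, 4423 and 3769 counts in Pdk4SMKO libraries, a log2 fold change of 5.04 (SE 0.15, edgeR, adjusted p = 9.68e-09). Suox, sulfite oxidase, went from 1.28 ± 0.295 to 34.2 ± 0.693 CPM, and Mocos, which adds the sulfur that aldehyde oxidases and Xdh need, from 2.54 ± 0.392 to 12.1 ± 0.853 CPM (SD, n = 3). Mtarc2, a mitochondrial reductase, had a log2 fold change of 1.13 (edgeR, adjusted p = 0.000656). Of the genes that build the cofactor itself, Mocs1 was at 42.0 ± 6.57 against 41.3 ± 5.43 CPM and Mocs2 at 35.4 ± 4.79 against 27.1 ± 2.14 CPM (SD, n = 3). Mocs1 did not pass the test, and Mocs2 (log2 fold change -0.39, edgeR, adjusted p = 0.0301), Gphn (-0.72, adjusted p = 0.00185) and Mocs3 (0.77, adjusted p = 0.0209) stayed under the limit of 2-fold.
Of the other aldehyde dehydrogenases, 14 were tested, of which 8 were higher and 2 were lower, beside the same shares of all genes. Aldh3a1, which clears lipid aldehydes, rose from 59.1 ± 10.6 to 315 ± 120 CPM and Aldh3a2, the fatty aldehyde dehydrogenase, from 29.1 ± 2.42 to 121 ± 11.2 CPM (SD, n = 3). The lower genes were Aldh1l2, a mitochondrial folate enzyme (log2 fold change -3.05), and Aldh18a1, of proline synthesis (-1.59, edgeR, adjusted p = 1.04e-05). Aldh2, the mitochondrial enzyme of ethanol breakdown, was at 742 ± 36.7 against 432 ± 38.8 CPM (SD, n = 3) and stayed under the limit of 2-fold.

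Both cellular retinoic acid binding proteins were lower. Crabp1, which holds retinoic acid in the cytoplasm, had 16, 30 and 37 counts in Pdk4fl/fl and 0 in all 3 Pdk4SMKO libraries. Its level in Pdk4fl/fl cells was only 1.84 ± 0.882 CPM (SD, n = 3), and it was at least 12.9-fold lower in Pdk4SMKO cells. A count of 0 allows at most 3 counts per library here.
Crabp2, which delivers retinoic acid to RAR receptors, had 71, 111 and 107 counts in Pdk4fl/fl and 13, 11 and 4 counts in Pdk4SMKO libraries. Every Pdk4SMKO library was below every Pdk4fl/fl library, at 0.438 ± 0.210 against 6.31 ± 1.69 CPM (SD, n = 3), 14.4-fold lower. The log2 fold change was -3.82 (SE 0.41, edgeR, adjusted p = 1.2e-05), and it stayed between -4.05 and -3.21 under all 13 alternatives tried.
Fabp5, a fatty acid carrier that can also bring retinoic acid to the receptor PPARδ, was far more abundant per length than either. It had 1366, 1771 and 1907 counts against 1366, 1775 and 1775 counts, a log2 fold change of -0.50 (SE 0.21, edgeR, adjusted p = 0.0455) that is under the limit of 2-fold. Of the summed level of the 3 carriers, Fabp5 made up 81.6 ± 1.92% in Pdk4fl/fl and 98.4 ± 0.954% in Pdk4SMKO cells, and Crabp2 12.6 ± 0.951% and 1.59 ± 0.954% (SD, n = 3).

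Cyp26b1, which oxidises retinoic acid for removal and is itself induced by retinoic acid in many cells, had 11, 24 and 12 counts in Pdk4fl/fl and 427, 303 and 315 counts in Pdk4SMKO libraries. The genotypes were well apart, at 0.986 ± 0.300 and 16.4 ± 2.02 CPM (SD, n = 3), 16.7-fold higher. Its log2 fold change was 4.03 (SE 0.26, edgeR, adjusted p = 3.17e-07). The other CYP26 genes were too low to be tested. Cyp26a1, whose promoter window holds the DR5 printed above, had 7, 17 and 5 counts in Pdk4fl/fl and 1, 1 and 0 counts in Pdk4SMKO libraries, and Cyp26c1 had 6, 5 and 7 against 6, 0 and 2 counts. Cyp26b1 accounted for 52.3 ± 3.25% of the CYP26 level per length in Pdk4fl/fl and 99.2 ± 0.603% in Pdk4SMKO cells (SD, n = 3).

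Rarb, the retinoic acid receptor gene with the DR5 shown above, had 27, 51 and 46 counts in Pdk4fl/fl and 98, 59 and 46 counts in Pdk4SMKO libraries. The genotypes overlapped, and replicate 1 was the lowest Pdk4fl/fl and the highest Pdk4SMKO library. Its level was 2.69 ± 0.846 against 3.17 ± 1.04 CPM (SD, n = 3), and the log2 fold change was 0.24 (SE 0.35, edgeR, adjusted p = 0.544). The exact two-sided permutation test gave p = 0.5 (n = 3 per genotype). Without Pdk4SMKO replicate 1 the value was -0.04, and with library size alone it was 0.85 (adjusted p = 0.0441), beside a median of 0.72 for all genes at that scaling. These values do not show that Rarb is alike in both genotypes.
Rarb was a small part of the RAR level per length, at 1.49 ± 0.652% in Pdk4fl/fl and 2.00 ± 0.919% in Pdk4SMKO cells (SD, n = 3), against 70.5 ± 4.20% and 76.0 ± 0.493% for Rarg. Of the 4 tested receptors other than Rarb, 1 was higher and 0 were lower, beside 32.8% and 26.5% of all genes tested. Rxra, a shared partner of many nuclear receptors, went from 43.8 ± 7.38 to 96.5 ± 15.02 CPM (SD, n = 3, log2 fold change 1.14, SE 0.16, edgeR, adjusted p = 0.000105). Its share of the RXR level per length was 37.7 ± 1.72% in Pdk4fl/fl and 60.0 ± 2.50% in Pdk4SMKO cells (SD, n = 3), with Rxrb as the rest and Rxrg at 0 counts in all libraries. Rara had a log2 fold change of -0.56, Rarg one of -0.08 and Rxrb one of -0.17, and none of these passed both limits.

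The retinoid genes outside the 9 were counted from a list of 49, of which 46 were found in the table and 28 were tested. Of these 28, 14 were higher and 5 were lower, with a median log2 fold change of 0.78 beside 0.12 for all genes tested, of which 32.8% were higher and 26.5% lower. The number of lower genes was 3 with upper-quartile scaling and 2 with library size alone. Stra6 and Aldh8a1 had 3 counts or fewer in every library of 1 genotype, passed the filter through the other alone and so had to differ. Rbp4 and Rdh14, both called higher, also met the filter in every library of Pdk4SMKO alone, which favours a difference. Stra6 is also counted among the uptake genes and the response genes below.
Uptake and storage genes had 6 higher and 0 lower of 8 tested, beside the same shares of all genes. Dgat1, which can esterify retinol as well as fat, had a log2 fold change of 2.23, Lpl, the lipoprotein lipase, one of 2.89, and Lrp1, a receptor for lipoprotein remnants, one of 1.99. Stra6, the membrane receptor for retinol carried in blood, was under 0.1 CPM on average in Pdk4fl/fl cells (0.0757) and at 6.12 CPM in Pdk4SMKO cells, at least 31.0-fold higher. Its span overlaps that of Ccdc33 on the other strand, with 20, 6 and 4 counts in Pdk4SMKO libraries, and the use of strand in counting is not given in the sources used here. Lrat, the main retinol esterifying enzyme, had 0 counts in all 6 libraries.
Of the enzymes that convert retinol and retinal into each other, 13 were tested, of which 6 were higher and 4 were lower. These counts stand beside 32.8% higher and 26.5% lower of all genes tested. Dhrs3, which reduces retinal back to retinol, had a log2 fold change of 3.53 (SE 0.26, edgeR, adjusted p = 7.44e-07). Rdh10, which works in the opposite direction, had a log2 fold change of 2.72 (edgeR, adjusted p = 4.53e-05). Dhrs4 rose from 6.31 ± 0.827 to 31.3 ± 3.26 CPM, whereas Akr1b3, an aldose reductase, fell from 100.4 ± 11.5 to 45.7 ± 6.41 CPM (SD, n = 3). Rdh11 was lower by a narrow margin over the 2-fold limit, at a log2 fold change of -1.01. The other lower genes were Rdh5 (log2 fold change -2.13, edgeR, adjusted p = 9.8e-05) and Rdh13 (-1.58, edgeR, adjusted p = 1.63e-05).

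**Figure D3:**
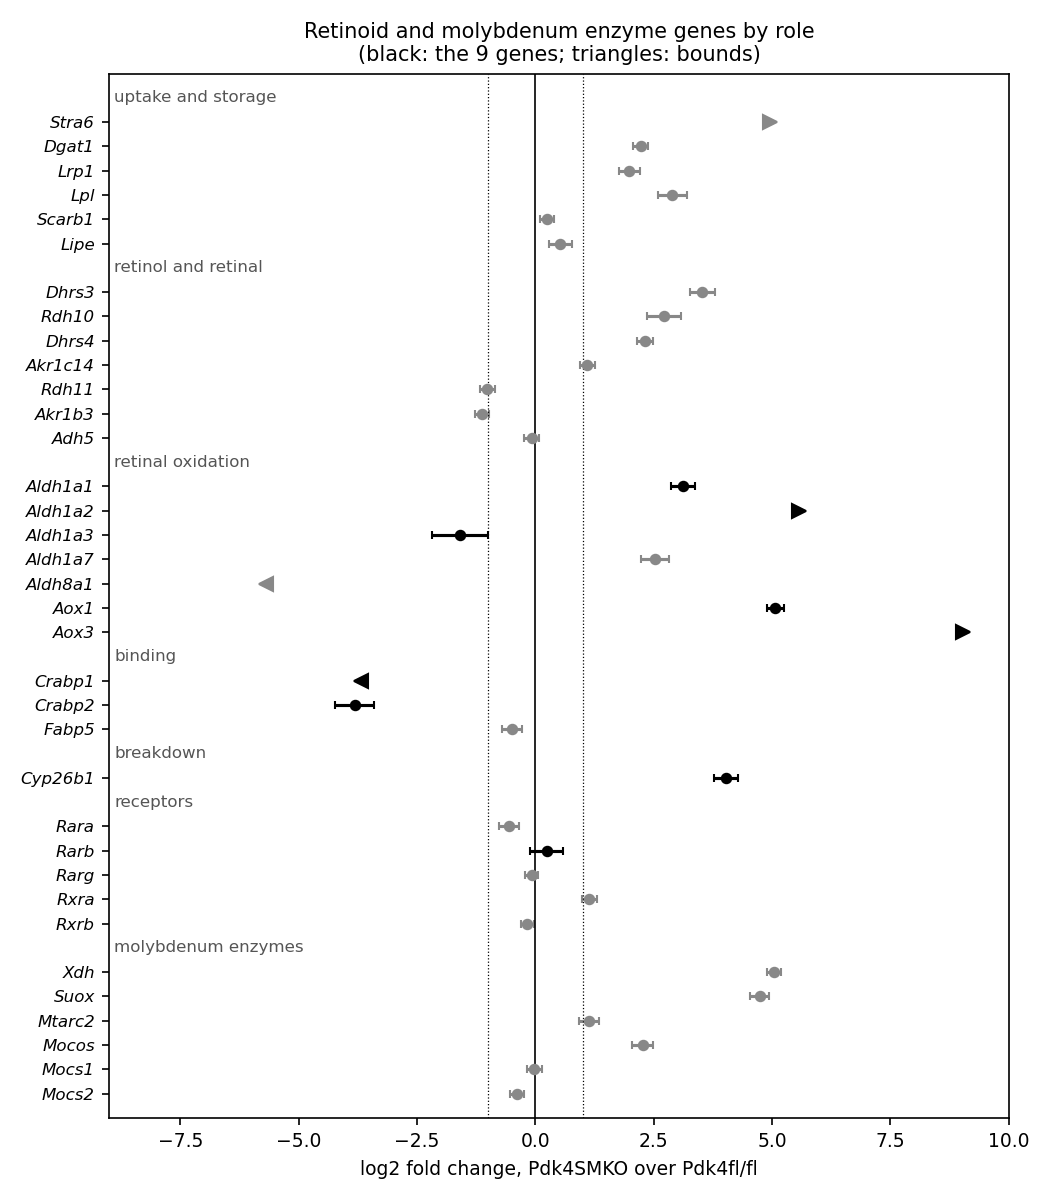
Log2 fold change of Pdk4SMKO over Pdk4fl/fl with its SE from edgeR, grouped by role. Shown are selected genes of the retinoid pathway, of the molybdenum enzymes and of their cofactor. Rdh5 and Rdh13, both lower, are among the tested genes not drawn. The 9 genes are in black, triangles are bounds against 3 counts per library, and dotted lines mark a 2-fold change. Crabp1, Crabp2 and Aldh1a3 lie to the left, and Aldh1a1, Aldh1a2, Aox1, Aox3 and Cyp26b1 to the right.

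Genes known to respond to retinoic acid were listed without regard to the tissue in which they do so. Outside the 9, 15 were tested, of which 11 were higher and 0 were lower, with a median log2 fold change of 2.36. Of all genes tested, 32.8% were higher and 26.5% lower (43.9% and 17% with library size alone). At least Stra6 and Rarres1 passed the filter through Pdk4SMKO alone, which favours a difference. Rarres1 had 3, 6 and 1 counts in Pdk4fl/fl and 373, 571 and 483 counts in Pdk4SMKO libraries. Gprc5a, a receptor named for its induction by retinoic acid, rose from 5.98 ± 2.13 to 90.3 ± 6.94 CPM and Meis2, a homeobox partner of HOX proteins, from 16.8 ± 3.34 to 49.9 ± 2.38 CPM (SD, n = 3). Tgm2, the tissue transglutaminase, was at 266 ± 42.5 against 421 ± 32.5 CPM (SD, n = 3), under the limit of 2-fold. Of the 9 genes, 3 belong to the same list and did not move together, since Cyp26b1 was higher, Crabp2 was lower and Rarb did not pass the test. Cyp26a1 was not tested.
Of 20 tested cofactors and partner receptors, 5 were higher and 2 were lower, beside 32.8% and 26.5% of all genes tested. The coactivator Ncoa2 went from 12.2 ± 2.08 to 66.0 ± 6.45 CPM and the coactivator Ncoa1 from 85.2 ± 7.77 to 25.3 ± 4.72 CPM (SD, n = 3). Ncor1 was at 207 ± 37.5 against 215 ± 26.2 CPM (SD, n = 3) and did not pass the test.

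Ordered per length, Aldh1a1 was followed in Pdk4fl/fl cells by Crabp2 (4.77 ± 1.28 CPM per kb) and Crabp1 (2.29 ± 1.10), all 3 with ranges apart from the next gene. Rarb, Cyp26b1, Aox1 and Aldh1a3 came next between 0.888 and 0.321 CPM per kb, each neighbour overlapping the next in range, and Aldh1a2 and Aox3 were at or under the limit of detection. In Pdk4SMKO cells the order was Aldh1a1 (194 ± 75), Aox1, Aox3 and Cyp26b1 (10.5 ± 1.29), where Aox3 overlapped both of its neighbours, then Aldh1a2 (4.13 ± 1.04), Rarb (1.04 ± 0.344), Crabp2 (0.331 ± 0.159) and Aldh1a3 (0.106 ± 0.0789 CPM per kb, SD, n = 3), where the ranges of Crabp2 and Aldh1a3 overlapped. Crabp1, the third in Pdk4fl/fl cells, came last at 0 counts.

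The Pdk4SMKO libraries were not alike in these genes. In replicate 1, Aldh1a1 was 1.86 times and Aldh1a2 1.47 times the mean of replicates 2 and 3, and Rarb was 1.66 times that mean. Aox3 in the same library was 0.247 times and Aox1 0.800 times the mean of the other two. The summed mesothelial markers stood at 1.71 times and the summed fibroblast markers at 0.513 times that mean in replicate 1, with Msln at 1.97 times and Lum at 0.321 times. Other lists moved in this library as well, with macrophage markers at 2.54 times, endothelial markers at 1.63 times and smooth muscle markers at 1.22 times that mean, and with the smooth muscle genes Cnn1 at 4.27 times and Tagln at 2.44 times. Aldh1a7, the neighbour of Aldh1a1, stood at 0.658 times. The part of these cell types in the levels of Aldh1a1, Aldh1a2, Aox1 and Aox3 was not tested. Without Pdk4SMKO replicate 1, 4 of the 8 tested genes were called higher and 3 lower, beside 32.3% and 27.2% of all genes tested.

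**Figure D4:**
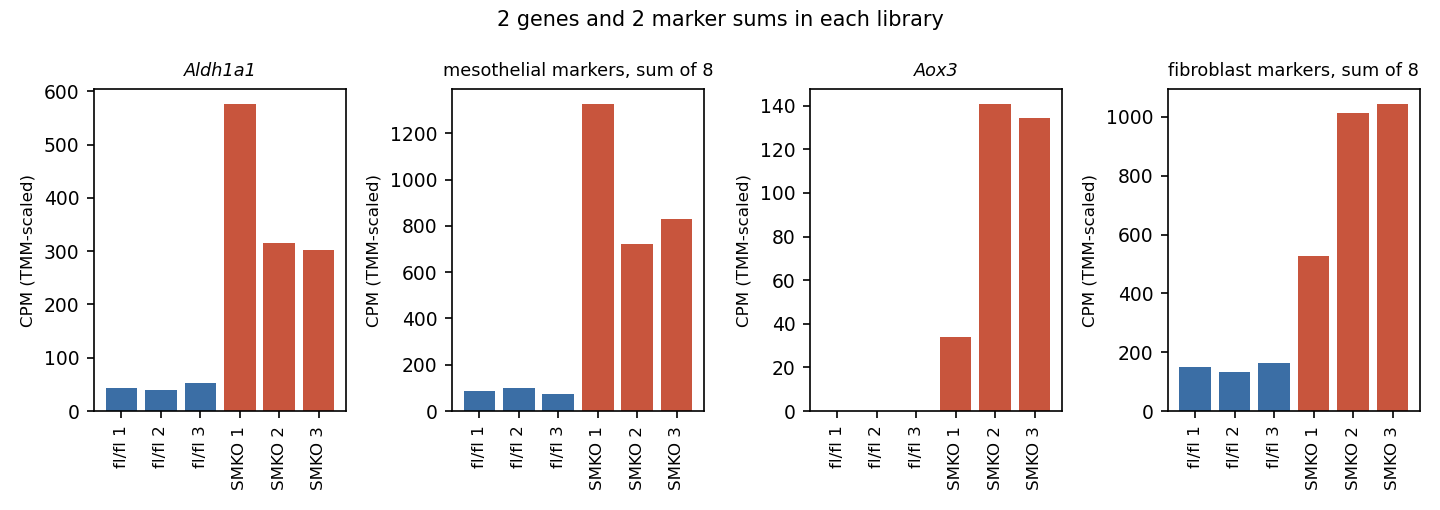
CPM of Aldh1a1, of the 8 mesothelial markers summed, of Aox3 and of the 8 fibroblast markers summed in each library, with Pdk4fl/fl in blue and Pdk4SMKO in red. Aldh1a1 and the mesothelial sum are highest in Pdk4SMKO replicate 1, where Aox3 and the fibroblast sum are the lowest of the 3 Pdk4SMKO libraries.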

How the data were processed

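The authors deposited unnormalized read counts of each gene for the 6 libraries, together with the length of each gene in bases. Per the labels the genome build was GRCm39, whereas 41096 of the 41721 identifiers are of Ensembl's C57BL/6NJ annotation, so coordinates are those of the table. The aligner, the counting program and the use of strand are not given in the sources used here, and the labels (SMARTER) and the study's methods (NEBNext Ultra) name different library kits. Grouping followed the genotype given for each sample, and 0 columns were left without a sample.

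Counts were filtered with filterByExpr, scaled by TMM and tested on genotype with the quasi-likelihood test of edgeR 4.0.16 in R 4.3.3, and p-values were adjusted over all 14085 tested genes (Benjamini-Hochberg). Calls required an adjusted p below 0.05 together with a change of 2-fold or more. Where every library of a genotype had 3 counts or fewer, the fold is a bound against 3 counts per library. CPM per kb divides CPM by the deposited gene length, which for some genes differs from the longest coding transcript. Orders and shares per length depend on this choice, and transcript lengths were not tried. The fits were also run on simulated counts in which few genes changed, evenly in both directions. Far more genes differed in these libraries, so that run cannot judge the scaling.

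The genes and lists were chosen with earlier results of these data known. Named genes are the 9 genes, Pdk4, their paralogs, up to 4 called and 2 uncalled genes with the highest mean CPM of each list, and up to 3 of each marker list, of which some are not reported here. Stra6, Lrat, Rbp4, Rdh5, Rdh10, Rdh13, Rdh14, Rarres1, Dhrs3, Ccdc33, Lum, Myh11, Cnn1, Gphn, Mocs3 and Xist were added after their values were seen. Of the retinol and retinal enzymes 20 of 23 listed genes were matched, of the macrophage markers 7 of 8. Promoters came from RefSeq (GRCm38.p6) and shared stretches from the longest coding transcripts of GENCODE, used for names and sequence alone. Alternatives were scaling by RLE, by upper quartiles or by library size, testing with DESeq2 1.42.0, other filters and thresholds, the replicate number as a block, each library left out, summed paralogs and levels without length.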

Additional observations from a re-analysis of the deposited data

How the results depend on the processing

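Of the 8 tested genes, 4 were higher and 2 or 3 lower under every scaling, with DESeq2, without a filter and with each library left out. Of all genes tested, these settings called between 23.7% (no filter) and 43.9% (library size alone) higher. They called between 17% (library size alone) and 27.2% (without Pdk4SMKO replicate 1) lower. With at least 10 counts in every library, a filter that removes Aldh1a2, Aldh1a3, Crabp1 and Crabp2 by its construction, 3 were higher and 0 lower. Of all genes tested there, 28.0% were higher and 24.6% lower. At that filter the retinoid list had 3 lower genes, and the higher genes were 2 for mesothelial, 2 for smooth muscle and 2 for fibroblast markers. The retinoid list had 3 lower genes with upper-quartile scaling and 2 with library size alone, and 9 higher and 2 lower with limits of 0.01 for the adjusted p and 2 for the log2 fold change, where 2 smooth muscle markers were higher. The 1 lower fibroblast marker was not called with upper-quartile scaling, library size alone, no filter, at least 10 counts in every library or the stricter threshold (0 lower each), and with libraries left out the count ranged from 0 to 2. Causes of these shifts beyond the filter and thresholds were not tested.
The replicate numbers did not pair the libraries: same-numbered deviations correlated at 0.04, 0.06 and 0.18. With the replicate block, 4577 genes were higher and 3704 lower, and Aldh1a3 was not called (log2 fold change -1.70, edgeR, adjusted p = 0.0516). The log2 fold change of Rarb reversed to -0.038 without Pdk4SMKO replicate 1, and with single libraries left out it ranged from -0.038 to 0.44. With Aox1 to Aox4 summed, the log2 fold change was 5.92, against 5.07 for Aox1 alone, and this sum holds Aox3, which was picked for its difference.
Without division by length, Aldh1a1 was 91.7% of the ALDH1A sum in Pdk4fl/fl cells, Rxra 45.9% and 67.8% of the RXR sum, and Fabp5 93.2% and 99.4% of the carriers in Pdk4fl/fl and Pdk4SMKO cells. With library size alone the RAR sum was 1.33-fold higher in Pdk4SMKO cells, against 0.875-fold with TMM. Depth limits Crabp1, Crabp2, Aldh1a2, Aldh1a3 and the CYP26 genes, which have few counts in 1 genotype or in both.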
